A study of Mus musculus with 6 samples.

Results

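The miR-17-92 and miR-106b-25 clusters of the mouse were described in EVs through 10 mature miRNA arms, chosen by name from the 1966 mature miRNAs of the count table. The rule used names and not values, but earlier results of these data were known when it was made. miR-17-92 was represented by 6 arms (miR-17-5p, miR-18a-5p, miR-19a-3p, miR-20a-5p, miR-19b-3p and miR-92a-3p) and miR-106b-25 by 4 (miR-106b-5p, miR-93-5p, miR-25-3p and miR-25-5p). Small RNA libraries were compared from EVs of colon explants (n = 3) and EVs of BMDCs (n = 3). All 6 libraries carry the strain label Rab27A fl/fl, a floxed allele with no Cre driver named in the labels, and no animal age is labelled. Colon explants were whole opened colons, incubated for 16 hours, and the EVs they shed can come from any cell type of the tissue. The methods give RPMI with exosome-depleted serum for the explants. BMDCs, dendritic cells obtained by culturing marrow cells with the growth factor GM-CSF, had been differentiated for 7 days in complete RPMI. That medium contains serum that the methods do not describe as exosome-depleted, and the part of serum vesicles in the counts was not tested. Both kinds of EV were pelleted by centrifugation. The labels give an iodixanol gradient, from which fraction 2 was sequenced, to colon EVs alone, while the paper's Results name the gradient for both sources, so it is uncertain whether the isolation differed. Source and medium, and isolation where it differed, cannot be told apart. The labels do not say that replicates came from separate animals or cultures, and p-values then measure only the spread between these libraries.

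Each cluster is copied into a single primary transcript from which several hairpins are cut, and each hairpin can yield a 5p and a 3p arm. One arm is usually kept by an Argonaute protein and guides it to mRNAs that pair with the seed, bases 2 to 8 of the miRNA, while the other arm is mostly degraded. The miR-17-92 transcript is induced by MYC and E2F factors in dividing cells, and its products restrain cell cycle inhibitors such as Cdkn1a and promoters of cell death such as Bcl2l11. miR-106b-25 lies inside Mcm7, which encodes a subunit of the replicative helicase, and is a paralog of miR-17-92.

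The 10 arms are printed here because their seeds define the groups in which they were counted, and because near-identical arms can share reads. Sequences are from RefSeq on GRCm38.p6, written 5′ to 3′, with the seed in capitals. The 4 seed groups were those of miR-17 (miR-17-5p, miR-20a-5p, miR-93-5p and miR-106b-5p), miR-18, miR-19 and miR-25/92, and miR-25-5p, the opposite arm of miR-25-3p, belongs to none of them.
mmu-miR-17-5p: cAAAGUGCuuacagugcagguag
mmu-miR-20a-5p: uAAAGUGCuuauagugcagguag
mmu-miR-93-5p: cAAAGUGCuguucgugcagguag
mmu-miR-106b-5p: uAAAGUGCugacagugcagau
mmu-miR-18a-5p: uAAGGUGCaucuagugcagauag
mmu-miR-19a-3p: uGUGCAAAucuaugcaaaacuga
mmu-miR-19b-3p: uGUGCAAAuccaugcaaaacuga
mmu-miR-92a-3p: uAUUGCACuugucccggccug
mmu-miR-25-3p: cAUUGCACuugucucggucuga
mmu-miR-25-5p: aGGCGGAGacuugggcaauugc

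With positions counted from 1 at the 5′ end and the base of the first-named miRNA given first, miR-17-5p and miR-20a-5p differed by C1U and C12U alone. miR-19a-3p and miR-19b-3p differed by U11C alone. miR-92a-3p and miR-25-3p differed at 3 of the 21 bases compared, by U1C, C14U and C18U, and miR-17-5p and miR-93-5p at 4 of 23, by U10G, A11U, C12U and A13C. Counts were not whole in all 6 libraries for miR-19b-3p, miR-92a-3p, miR-93-5p and miR-25-3p, in 3 libraries for miR-17-5p, miR-18a-5p and miR-20a-5p, and in 1 library for miR-19a-3p, miR-106b-5p and miR-25-5p. Counts were also not whole in all 6 libraries for miR-155-5p and miR-142a-3p, which carry none of these seeds. A count that is not whole is thus not particular to these arms, and it does not show whether they shared reads. Whether and how reads were divided is not given in the sources used here, so the split between near-identical arms is uncertain.

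On GRCm38, the 6 hairpins of miR-17-92 span 836 bases of the plus strand at chr14:115043671-115044506 and lie in an exon of the long noncoding RNA Mir17hg, in the order Mir17, Mir18, Mir19a, Mir20a, Mir19b-1 and Mir92-1. The 3 hairpins of miR-106b-25 span 498 bases of the minus strand at chr5:138165321-138165818 within Mcm7, in the order Mir106b, Mir93 and Mir25 along the transcript. Mir106b lies in an intron, and Mir93 and Mir25 fall in an exon only of transcripts annotated as retained introns. miR-19b-3p and miR-92a-3p each have another hairpin in a paralogous cluster of 6 hairpins, the miR-106a-363 cluster, on the minus strand at chrX:52741693-52742567. The other 8 arms have a single hairpin each.

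Total counts were between 173358 and 645303 in colon EV libraries and between 83997 and 178454 in BMDC EV libraries. A floor of 3 counts corresponded to 4.65 to 17.3 CPM in colon EVs and to 16.8 to 35.7 CPM in BMDC EVs, and it covers counting error only. Marker miRNAs of the tissues followed the labels. All 8 colon epithelium markers were higher in colon EVs, with a summed level of 22.4 to 29.8% of counts against 0.374 to 0.791% in BMDC EVs, and all 7 hematopoietic markers were higher in BMDC EVs, with 30.7 to 32.3% against 0.514 to 1.19%. Of 5 red cell markers, only miR-486b-5p, whose reads can be shared with its near-copy miR-486a-5p, passed the count filter, and it was higher in BMDC EVs (log2 fold change 2.41). The summed red cell markers ranged from 65.9 to 211 CPM in colon EVs and from 632 to 839 CPM in BMDC EVs, and miR-451a, which defines red cells, had 0 to 11 counts a library. Of 4 muscle markers only miR-143-3p passed the filter and it was lower in BMDC EVs, with a log2 fold change of −4.76, and the sum ranged from 1182 to 1785 CPM in colon EVs and from 59.1 to 169 CPM in BMDC EVs. The part of these cell types in the levels below was not tested, and in bulk EVs fewer vesicles from a cell type cannot be told apart from less miRNA in each.

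The clusters were measured through a few abundant arms. In colon EVs, miR-93-5p was the most abundant of the 10 arms, with 5532, 4856 and 5784 TMM-scaled CPM in replicates 1 to 3, where CPM is the count relative to a fixed library total and TMM a scaling between libraries. miR-25-3p followed with 2442, 2690 and 2455 CPM, and miR-92a-3p with 1842, 2859 and 2127 CPM. The last 2 overlapped, so their order in colon EVs was not settled by these libraries, while miR-93-5p lay above both in all 3. Every other member was far lower, at 9.96 to 339 CPM, in the order miR-20a-5p, miR-17-5p, miR-19b-3p, miR-18a-5p, miR-19a-3p, miR-106b-5p and miR-25-5p. miR-20a-5p overlapped with miR-17-5p, and from miR-18a-5p down each arm overlapped with the next.

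In BMDC EVs the same 3 arms led. miR-93-5p was at 8240, 9487 and 10610 CPM, miR-92a-3p at 8957, 5812 and 5757 CPM and miR-25-3p at 5121, 4394 and 4958 CPM. Here miR-92a-3p lay above miR-25-3p in all 3 libraries and overlapped with miR-93-5p through replicate 1. Among the 220 tested miRNAs, ordered by mean level, miR-93-5p stood at place 37 in colon EVs and place 17 in BMDC EVs, miR-92a-3p at 50 and 23, and miR-25-3p at 48 and 28. The remaining arms tested stood between places 121 and 198 in colon EVs and between 87 and 170 in BMDC EVs. The lower arms followed in the order miR-17-5p, miR-20a-5p, miR-25-5p, miR-18a-5p, miR-19b-3p, miR-19a-3p and miR-106b-5p in BMDC EVs, and of these neighbors only miR-20a-5p and miR-25-5p did not overlap over the 3 libraries.

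**Figure D1:**
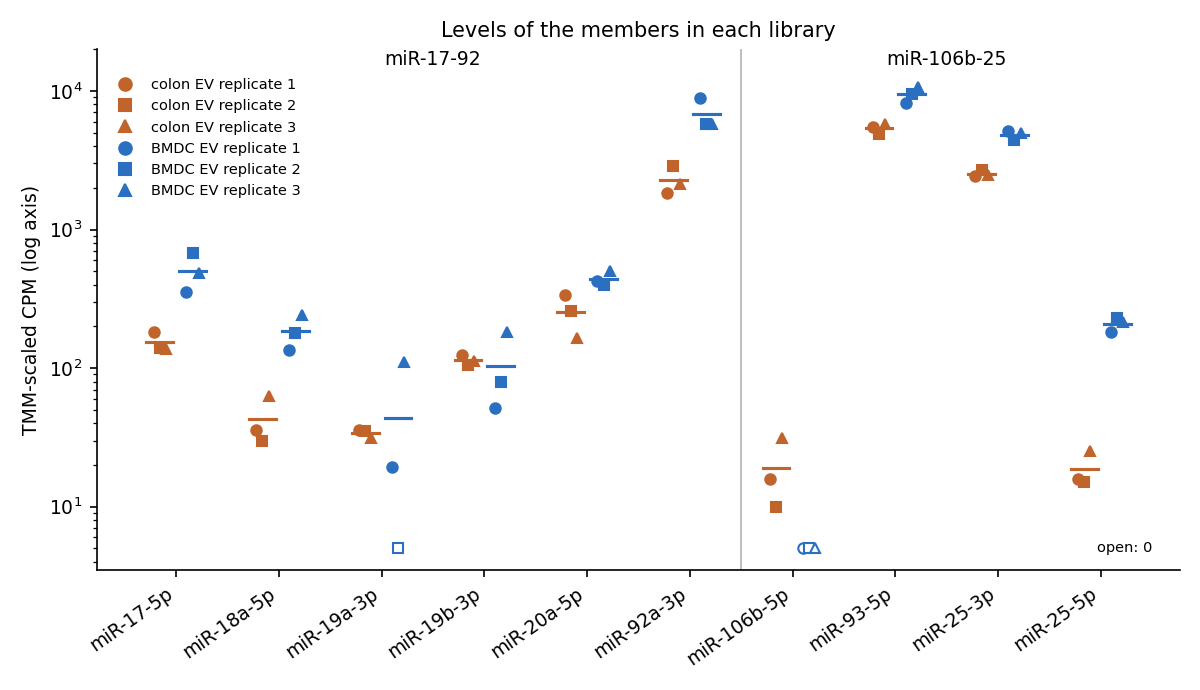
Level of each of the 10 arms in each library, in TMM-scaled CPM on a log axis, with colon EVs in orange and BMDC EVs in blue, marker shape for the replicate, a bar at the mean of 3 libraries and open markers at the bottom for a count rounded to 0. miR-93-5p, miR-92a-3p and miR-25-3p lie at 1842 CPM or above in every library, and the blue points of miR-25-5p (181 to 230 CPM) lie far above the orange ones (14.9 to 25.2 CPM).

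The question put to the table was whether EVs of the 2 sources differ in these miRNAs. Of the 10 members, 8 reached 10 counts in 3 or more libraries and were tested, and 7 were higher in BMDC EVs by edgeR's quasi-likelihood test with a Benjamini-Hochberg adjusted p under 0.05. None was higher in colon EVs. Over all 220 tested miRNAs, 89 (40.5%) were called higher in BMDC EVs, 80 (36.4%) were called higher in colon EVs, and 171 had an unadjusted p under 0.05. The median log2 fold change, BMDC EVs over colon EVs, was 1.27 for the 8 tested members and 0.19 for all tested miRNAs. TMM-scaled levels of the sources did not overlap for 7 of the 8, where 81.4% of all tested miRNAs did not overlap. Of the 8, miR-25-5p alone passed the filter only through the source where it was high, which favored its call. These counts describe the members and do not set them apart.

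Within the miR-17 seed group, all 3 tested arms were called higher in BMDC EVs, by unequal amounts, the call of miR-20a-5p being marginal. miR-17-5p, from the first hairpin of miR-17-92 and a known repressor of Cdkn1a, had 181, 139 and 138 CPM in colon EVs and 355, 679 and 482 CPM in BMDC EVs. The 3 BMDC EV libraries all lay above the colon EV libraries, with 153 ± 24.4 against 506 ± 163 CPM (mean ± SD, n = 3 each). The log2 fold change was 1.69 (SE 0.37, 95% interval 0.92 to 2.47, adjusted p = 0.000388). miR-20a-5p, which differs from it by the base changes given above, had 339, 259 and 164 CPM in colon EVs and 426, 399 and 502 CPM in BMDC EVs. These did not overlap either, but colon EV replicate 1 came close to the lowest BMDC EV library. The log2 fold change of miR-20a-5p was 0.79 (SE 0.35, 95% interval 0.05 to 1.52, adjusted p = 0.0496), and the call was lost when colon EV replicate 1, 2 or 3 was left out (adjusted p 0.0719, 0.276 and 0.495). With a count filter on 2 libraries in such fits, it was kept in 1 of 6, without colon EV replicate 1, so the call does not rest on the colon EV libraries alone.

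miR-93-5p, which like miR-106b-5p shares the seed of miR-17-5p and lies in Mcm7, held 89.8 to 94.6% of the counts of this seed group in every library. It averaged 5391 ± 480 CPM in colon EVs and 9446 ± 1185 CPM in BMDC EVs (SD, n = 3 each), with no overlap. Its log2 fold change was 0.82 (SE 0.21, 95% interval 0.38 to 1.25, adjusted p = 0.00154), and it fell to 0.48 with an adjusted p of 0.12 without colon EV replicate 2. miR-106b-5p, the arm that names its cluster, did not pass the filter. It had 8, 2 and 5 counts in colon EVs and 0.5, 0 and 0 counts in BMDC EVs. The colon EV counts amounted to 12.4, 8.60 and 28.8 CPM without scaling, while a count of 0 in BMDC EV replicates 2 and 3 allows up to 35.7 and 16.8 CPM, so the levels of the sources are not separated by these counts. Without a count filter, edgeR called miR-106b-5p higher in colon EVs, a call that rests on these same few counts.

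miR-18a-5p, the only member of its seed group, had 35.8, 29.9 and 62.9 CPM in colon EVs and 136, 180 and 241 CPM in BMDC EVs. The levels did not overlap, and the log2 fold change was 2.17 (SE 0.48, 95% interval 1.16 to 3.19, adjusted p = 0.000473). Those levels rest on 6.5 to 48.5 counts a library.

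The miR-19 seed group was the only group without a called arm. miR-19b-3p had 123, 105 and 113 CPM in colon EVs and 51.7, 79.9 and 181 CPM in BMDC EVs. BMDC EV replicates 1 and 2 lay below every colon EV library and replicate 3 lay above them, so that the mean was 114 ± 9.45 in colon EVs and 104 ± 67.9 CPM in BMDC EVs (SD, n = 3 each). The log2 fold change was −0.08 (SE 0.48, 95% interval −1.10 to 0.94, adjusted p = 0.899), and the interval leaves room for a difference of about 2 times in either direction. Its sign turned under upper quartile scaling (0.17) and under library size alone (0.37). miR-19a-3p was measured by 18, 7 and 5 counts in colon EVs and by 3, 0 and 21.5 in BMDC EVs, and was not tested. As for miR-19b-3p, BMDC EV replicate 3 had the highest count of the 3.

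Both arms of the miR-25/92 seed group were higher in BMDC EVs. miR-92a-3p, the last hairpin of miR-17-92, averaged 2276 ± 524 CPM in colon EVs and 6842 ± 1832 CPM in BMDC EVs (SD, n = 3 each). Its log2 fold change was 1.60 (SE 0.25, 95% interval 1.08 to 2.11, adjusted p = 9.69e-06). miR-25-3p, a known repressor of Bcl2l11, averaged 2529 ± 140 CPM in colon EVs and 4824 ± 382 CPM in BMDC EVs, with a log2 fold change of 0.94 (SE 0.20, 95% interval 0.52 to 1.36, adjusted p = 0.000359). Neither arm overlapped between sources, and within the group miR-92a-3p made up 43.0, 51.5 and 46.5% of the counts in colon EVs and 63.6, 56.9 and 53.7% in BMDC EVs.

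miR-25-5p passed the count filter through BMDC EVs alone, so its test after the filter is no independent sign of a difference. This arm of the Mir25 hairpin had 15.9, 14.9 and 25.2 CPM in colon EVs and 181, 230 and 216 CPM in BMDC EVs, from 3 to 8 and from 23 to 43 counts. The groups lay far apart, and the log2 fold change was 3.51 (SE 0.50, 95% interval 2.45 to 4.57, adjusted p = 4.54e-06). Without a count filter it was 2.98 (adjusted p = 3.09e-06).

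**Figure D2:**
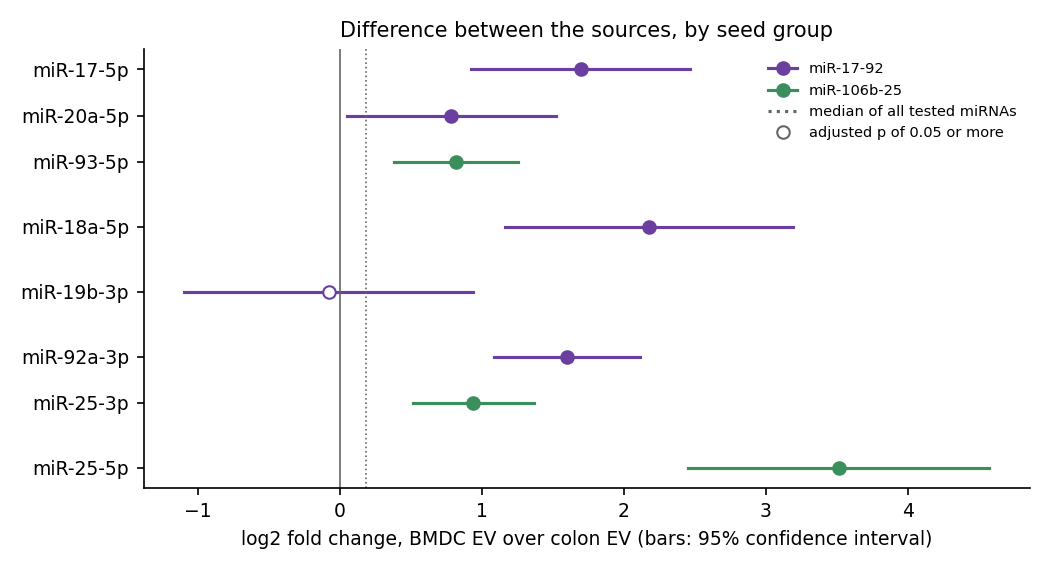
Log2 fold change, BMDC EVs over colon EVs, of the 8 tested arms with 95% intervals, arranged by seed group with miR-25-5p at the bottom. Purple marks miR-17-92, green miR-106b-25, the solid line no difference, the dotted line the median of all tested miRNAs (0.19) and the open circle an adjusted p of 0.05 or more, which is miR-19b-3p alone.

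Summed over their members, both clusters took a larger share of BMDC EV libraries. miR-17-92 took 0.199, 0.296 and 0.241% of counts in colon EVs and 1.22, 0.853 and 0.811% in BMDC EVs. miR-106b-25 took 0.623, 0.653 and 0.760% in colon EVs and 1.65, 1.68 and 1.76% in BMDC EVs. Neither cluster overlapped between sources, and the 10 members together took 0.924 ± 0.0921% of colon EV counts and 2.66 ± 0.182% of BMDC EV counts (SD, n = 3 each). No test was made of sums over chosen members. The BMDC EV share over the colon EV share, as a log2 ratio, was 1.97 for miR-17-92 and 1.32 for miR-106b-25, and on TMM-scaled CPM it was 1.50 and 0.86.

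By seed group, the miR-17 group took 0.496 ± 0.0568% of colon EV counts and 1.22 ± 0.102% of BMDC EV counts. The miR-25/92 group took 0.411 ± 0.0731% and 1.38 ± 0.297%, and the miR-18 group 0.00378 ± 0.00172% and 0.0219 ± 0.00531%, none of these overlapping. The miR-19 group overlapped, with 0.0125, 0.0122 and 0.0130% in colon EVs and 0.00907, 0.0101 and 0.0321% in BMDC EVs, where replicate 3 alone lay above the colon EV libraries. Its log2 ratio of 0.45 was −0.39 without BMDC EV replicate 3.

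The balance between the clusters differed as well. Counts of miR-106b-25 exceeded those of miR-17-92 in all 6 libraries, by a ratio of 3.13, 2.21 and 3.15 in colon EVs and of 1.36, 1.97 and 2.17 in BMDC EVs. The sources did not overlap in this ratio, but colon EV replicate 2 and BMDC EV replicate 3 were close to each other.

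**Figure D3:**
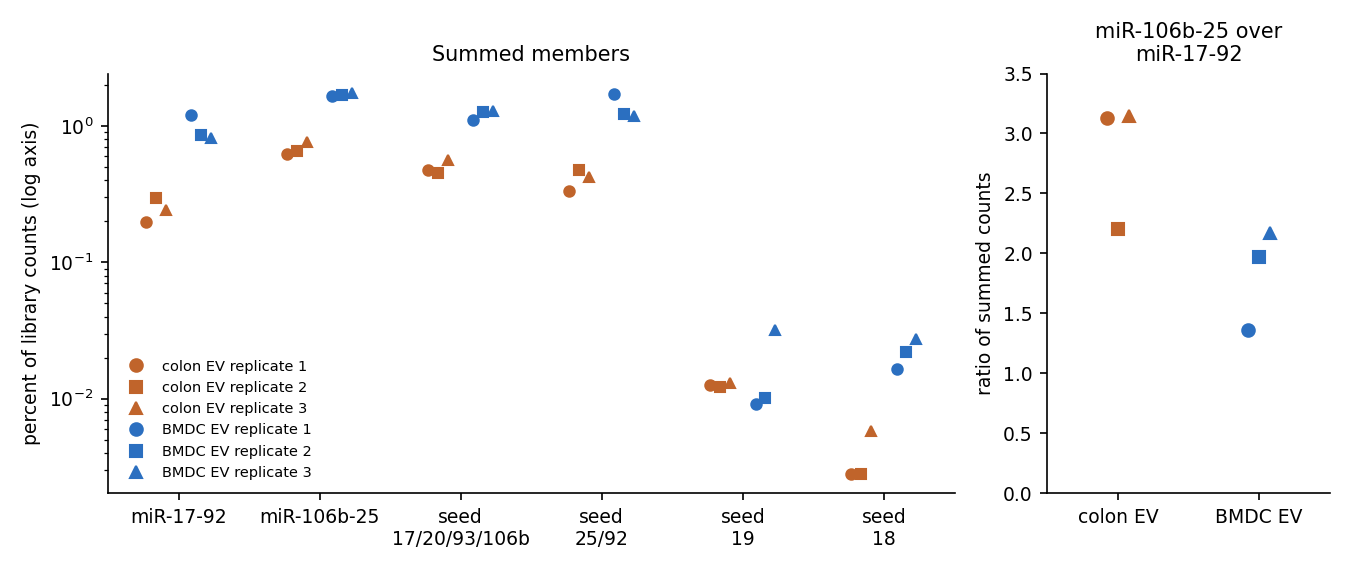
Left, percent of library counts (log axis) taken by the summed members of each cluster and each seed group in each library; right, ratio of miR-106b-25 to miR-17-92 counts. Both clusters and every seed group except the miR-19 group lie higher in all BMDC EV libraries (blue) than in all colon EV libraries (orange), and the ratio falls from 2.21 to 3.15 in colon EVs to 1.36 to 2.17 in BMDC EVs.

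The next question was whether arms cut from a single transcript kept like proportions. In miR-17-92, miR-92a-3p made up 72.0, 83.3 and 80.9% of the 6 members' counts in colon EVs and 90.0, 81.2 and 79.2% in BMDC EVs, which overlap. miR-20a-5p made up 13.2, 7.55 and 6.22% in colon EVs and 4.27, 5.65 and 6.94% in BMDC EVs, and miR-17-5p 7.08, 4.07 and 5.14% and 3.57, 9.42 and 6.60%, which also overlap. miR-18a-5p ranged from 0.944 to 2.39% and from 1.36 to 3.35%. miR-19b-3p was the only one of the 6 whose shares did not overlap, with 4.86, 3.10 and 4.18% in colon EVs and 0.552, 1.19 and 2.47% in BMDC EVs.

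In miR-106b-25, the shares of the leading arms overlapped between sources. miR-93-5p made up 69.1, 64.1 and 69.7% of the 4 members' counts in colon EVs and 60.9, 67.2 and 67.2% in BMDC EVs, and the ratio of miR-93-5p to miR-25-3p was 2.14 ± 0.297 in colon EVs and 1.97 ± 0.312 in BMDC EVs (SD, n = 3 each). miR-25-5p rose from 0.199, 0.197 and 0.304% of the cluster in colon EVs to 1.31, 1.63 and 1.37% in BMDC EVs. miR-106b-5p stayed at or below 0.380% in every library, with 0.199, 0.132 and 0.380% in colon EVs and 0.0239, 0 and 0% in BMDC EVs. These shares did not overlap, but they rest on few counts and were not tested.

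**Figure D4:**
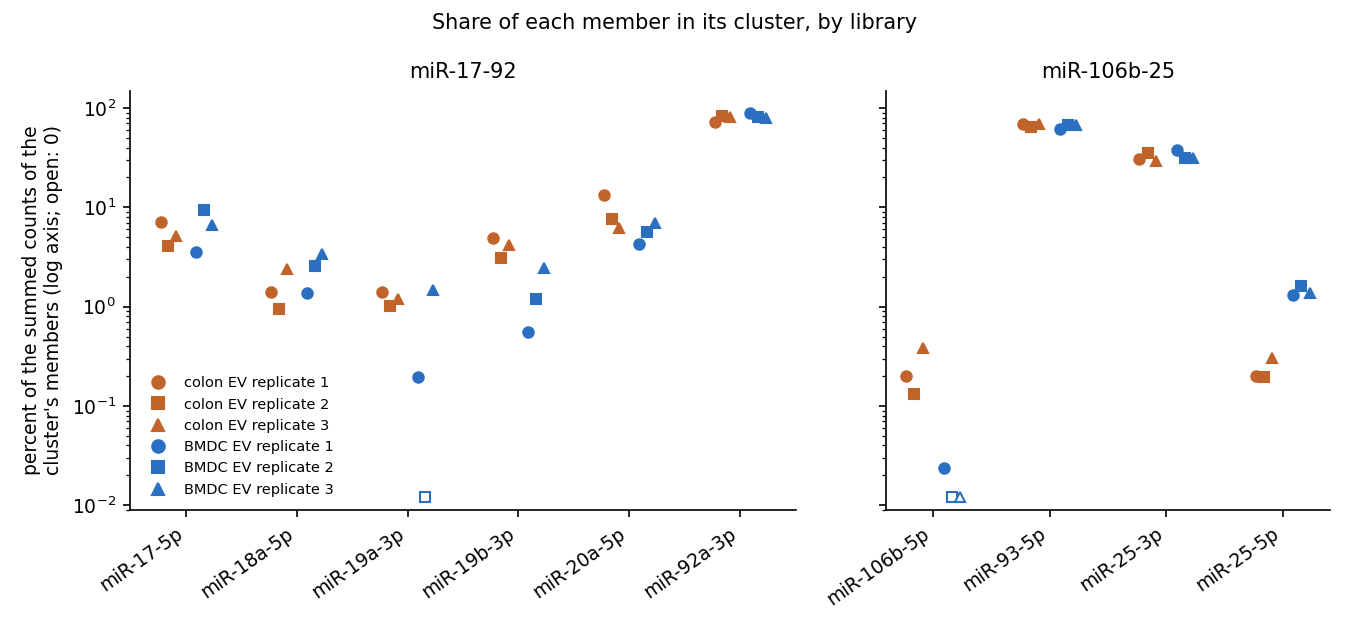
Percent of its cluster's counts (log axis) held by each arm in each library, for miR-17-92 (left, 6 arms) and miR-106b-25 (right, 4 arms), with colon EVs in orange, BMDC EVs in blue and open markers at the bottom for 0. miR-92a-3p (72.0 to 90.0%) and miR-93-5p (60.9 to 69.7%) dominate in every library, and among the tested arms the sources separate for miR-19b-3p and miR-25-5p alone.

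Proportions were tested with edgeR's diffSpliceDGE, run on 99 miRNAs of 38 clusters, in which each arm's change is set against that of its cluster's tested arms as a whole. It called 9 of the 99 (9.09%) and 2 of the 8 members. miR-19b-3p was lower relative to its cluster in BMDC EVs, by a log2 change of −1.59 (adjusted p = 0.0188), and miR-25-5p was higher, by 2.63 (adjusted p = 0.00339). For the other 6 the log2 change relative to the cluster was 0.66 for miR-18a-5p (adjusted p = 0.729), 0.18 for miR-17-5p, 0.08 for miR-92a-3p, 0.06 for miR-25-3p, −0.06 for miR-93-5p and −0.73 for miR-20a-5p (adjusted p = 0.362). A value near 0 for miR-92a-3p, miR-93-5p or miR-25-3p follows in part from their own weight in the cluster. The miR-19b-3p call was lost when colon EV replicate 1 or 3 or BMDC EV replicate 1 or 2 was left out (adjusted p 0.107, 0.0613, 0.336 and 0.0633). The miR-25-5p call was lost without colon EV replicate 1 (adjusted p = 0.0534). Because this arm passed the count filter through BMDC EVs alone, its relative change is also given without a filter, where it was 2.61 (adjusted p = 0.00217).

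Without miR-92a-3p, which can also come from the X chromosome, the 5 other arms of miR-17-92 gave further shares. miR-17-5p made up 25.5 ± 1.26% of these counts in colon EVs and 39.2 ± 9.61% in BMDC EVs, miR-18a-5p 7.72 ± 4.15% and 14.5 ± 1.37%, and miR-19b-3p 19.3 ± 2.33% and 7.90 ± 3.46% (SD, n = 3 each), none of them overlapping. miR-20a-5p made up 41.7 ± 8.02% and 35.4 ± 6.72%, which overlapped. The margin for miR-18a-5p was narrow, at 12.5% in colon EV replicate 3 against 13.7% in the lowest BMDC EV library. These shares add up to a whole, so a lower share of miR-19b-3p raises the others, and they were not tested. In the test of proportions above, miR-17-5p and miR-18a-5p were not called. The ratio of miR-17-5p to its near-identical relative miR-20a-5p was 0.535, 0.538 and 0.827 in colon EVs and 0.835, 1.67 and 0.950 in BMDC EVs, so the sources were separated by a narrow margin. miR-17-5p over miR-19b-3p was 1.46, 1.31 and 1.23 in colon EVs and 6.47, 7.94 and 2.67 in BMDC EVs. These did not overlap, and miR-19b-3p, like miR-92a-3p, has another hairpin on the X chromosome.

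Use of the opposite arms differed between hairpins. For Mir25, the 5p arm held 0.648, 0.552 and 1.02% of both arms' counts in colon EVs and 3.35, 4.96 and 4.18% in BMDC EVs. The 3p arm thus remained dominant in all 6 libraries while the minor arm gained share. For Mir92-1 the minor 5p arm held 0.377, 0.434 and 0.295% in colon EVs and 0.893, 2.19 and 0.434% in BMDC EVs. That share rests on few counts, and the nearest libraries of the sources were at 0.434% each. For Mir17, Mir18, Mir20a and Mir93 the share of the 3p arm overlapped between sources. For Mir106b the arm in the member list was the minor one: miR-106b-3p had 32, 20.33 and 11 counts in colon EVs and 42.2, 4 and 28.33 in BMDC EVs, which is 80.0, 91.0 and 68.8% and 98.8, 100 and 100% of both arms. In all 6 libraries most counts of the Mir106b hairpin were thus on miR-106b-3p. Its share did not overlap between sources, but the hairpin had few counts.

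Of the 8 opposite arms listed, 3 passed the count filter, and none was called by edgeR's quasi-likelihood test. Their log2 fold changes were 1.23 for miR-17-3p (SE 0.59, adjusted p = 0.064), 1.03 for miR-106b-3p (SE 0.54, adjusted p = 0.0876) and 1.46 for miR-93-3p (SE 0.70, adjusted p = 0.0662). In BMDC EV replicate 2 these arms had 2, 4 and 0 counts. Of the others, miR-19a-5p and miR-19b-1-5p were at 0 in every library, and miR-92a-1-5p, the 5p arm of the miR-17-92 copy of the miR-92a hairpin, had 3.5, 2.5 and 1 counts in colon EVs and 12.5, 13 and 5 in BMDC EVs.

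The third paralogous cluster, on the X chromosome, had few counts. Its 10 arms that come from no other cluster had 18 counts in all 6 libraries together, of which 10 were miR-363-3p in BMDC EV replicate 2, and 6 of the 10 were at 0 throughout. The opposite arms of its miR-19b and miR-92a hairpins, miR-19b-2-5p and miR-92a-2-5p, were among these 6, while miR-92a-1-5p was counted in every library. Outside the members, 8 listed miRNAs carry a seed of the 4 groups, and miR-92b-3p alone passed the filter. It shares the seed of miR-25/92 and had 5, 4 and 2 counts in colon EVs and 29, 13 and 10 in BMDC EVs. It passed through BMDC EVs alone, so no test of it is given. miR-32-5p, of the same seed, had 22.33, 2 and 5 counts in colon EVs and 0, 0 and 4 in BMDC EVs and was not tested. Together these 8 took 0.00387 to 0.00462% of counts in colon EVs and 0.00841 to 0.0274% in BMDC EVs, far less than the members.

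The miRNAs most like each cluster in their levels over the 6 libraries were sought among 97 tested nonmembers with a base level of at least 100. For the miR-17-92 sum, Pearson's r on log2 TMM-scaled CPM was highest for miR-221-3p (0.990), miR-361-5p (0.990) and miR-674-3p (0.989), whose own log2 fold changes were 2.02, 0.82 and 2.96. For the miR-106b-25 sum they were miR-140-3p (0.996), miR-674-5p (0.994) and miR-146a-5p (0.994), with log2 fold changes of 1.48, 2.80 and 3.68. The points of each correlation are the same 6 libraries and share the difference between the sources, so the values are a description only.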

How the data were processed

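Per the labels, QIAseq miRNA libraries were sequenced from 3 colon EV and 3 BMDC EV preparations. The table the authors deposited holds estimated counts of mature miRNAs, not normalized and not always whole. The submitters' processing notes name STAR 2.7.6a, featureCounts 1.6.3, DESeq2 1.30.1 and GRCm38/mm10; the use of molecular identifiers and the handling of multimapped reads are not given in the sources used here. Libraries held 83997 to 645303 counts.

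Counts were rounded to whole numbers, so that 0.5 became 0, and the whole table was fitted with edgeR 4.0.16 in R 4.3.3 (TMM, quasi-likelihood test, no block, at least 10 counts in at least 3 libraries, Benjamini-Hochberg adjustment over 220 miRNAs, called at 0.05). Replicates of a source were compared before averaging, and no library was found in duplicate. SEs were the absolute log2 fold change divided by the square root of the quasi-likelihood F statistic. The 95% intervals were built from these SEs with a t quantile, so both come from the same test as the p-values. Proportions within a cluster were tested with diffSpliceDGE, with mature miRNAs as exons and hairpins on 1 strand with neighbors within 10 kb as genes. A miRNA with several hairpins was put in the cluster with the most tested miRNAs. Shares used the unrounded counts. Both tests were tested on simulated data. Hairpins were placed with GENCODE vM21 and RefSeq tables of GRCm38.

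The members and lists were chosen with earlier results of these data known. The text names the 10 members, their opposite arms, the third paralogous cluster, miRNAs with a member's seed, the 3 miRNAs most correlated with each cluster's sum and marker lists. Alternatives were DESeq2 1.42.0, limma 3.58.1 with voom, other scalings, no count filter, edgeR's own filter, robust dispersion, the replicate number as a block, a gap of 1 kb, leaving out miRNAs of several clusters and leaving out each library. Labels number both sources' replicates 1 to 3 with no stated link. Figures were drawn with matplotlib 3.10.9.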

Additional observations from a re-analysis of the deposited data

How the results depend on the processing

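miR-17-5p, miR-18a-5p and miR-92a-3p kept their call in every alternative. miR-25-5p kept its call wherever it was tested, but under a count filter it passed through BMDC EVs alone. Its filtered calls are thus no independent sign of a difference. miR-20a-5p did not pass with DESeq2 (log2 fold change 0.67, adjusted p = 0.0855), with robust dispersion (adjusted p = 0.0521) or with edgeR's own filter (0.59). Leaving out the count filter moved the median log2 fold change by −0.52. Then 4 members were called higher in BMDC EVs in place of 7, with miR-20a-5p (0.24), miR-93-5p (0.31) and miR-25-3p (0.44) lost. In colon EVs, 1 member, miR-106b-5p, was called higher in place of 0. Leaving out each library gave 5 to 7 members higher in BMDC EVs, the lowest without colon EV replicate 2. The log2 fold change of miR-19b-3p turned to 0.17 with upper quartile scaling, 0.37 with library size alone, 0.65 without BMDC EV replicate 1 (0.26 with a count filter on 2 libraries) and 0.53 without BMDC EV replicate 2, and ranged from −0.40 to 0.65 when each library was left out, or from −0.88 (without BMDC EV replicate 3) to 0.26 with the filter on 2 libraries. Library size alone moved the median of all tested miRNAs by 0.47, upper quartile scaling by 0.23 and DESeq2 by −0.13; over all miRNAs, calls of higher in BMDC EVs and of higher in colon EVs then numbered 105 and 70 with library size and 84 and 84 with DESeq2, against 89 and 80.

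In the test of proportions, 1 member was called in place of 2 without a count filter and without the miRNAs of several clusters, which takes out miR-19b-3p itself, and 0 to 2 when each library was left out. miR-25-5p falls below the count filter when a BMDC EV library is left out. With a filter on 2 libraries, chosen after the data were seen, miR-25-5p kept this call in 5 of 6 such fits and miR-19b-3p in 1, without BMDC EV replicate 3. Relative changes near 0 changed sign: miR-25-3p was at −0.13 with voom, between −0.0056 (without BMDC EV replicate 1) and 0.14 with each library left out, and at −0.019 without BMDC EV replicate 1 and with the filter on 2 libraries. miR-93-5p kept its sign with voom (−0.36) and ranged from −0.10 to 0.011 with each library left out, the latter without BMDC EV replicate 1. With voom, proportions were tested with limma's diffSplice in place of diffSpliceDGE, so the voom values are not the same measure. miR-17-5p was at −0.041 without colon EV replicate 2 and −0.13 without BMDC EV replicate 2 (−0.040 and −0.17 with the filter on 2 libraries). The log2 ratio of shares on TMM-scaled CPM was 1.50 for miR-17-92, 0.86 for miR-106b-25, 0.84 for the miR-17 group, 1.28 for the miR-25/92 group and −0.0040 for the miR-19 group. On library shares the miR-19 value ranged from −0.39 (without BMDC EV replicate 3) to 0.75. The cause of these changes was not tested.

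Samples of the same number did not deviate together (r −0.135, −0.0475 and −0.133), so the numbers were not taken as a pairing. With the replicate block, 6 members were higher in BMDC EVs, miR-20a-5p having an adjusted p of 0.067, and 2 members were called in the test of proportions. Depth limited miR-19a-3p, miR-106b-5p and most opposite arms, which rest on few counts. Reads that may be divided between near-identical arms limit the split within each seed group.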
